A study of Triticum aestivum with 39 samples.

Results

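The radicle, the first root to leave the germinating wheat seed, was compared with the embryo taken from the developing grain at 22 days after pollination (DAP). The radicle group consisted of the 3 arrays labelled as root of germinating seed, and the embryo group of the 3 arrays labelled 22 DAP embryo, 6 of the 39 arrays in an atlas of 13 tissues hybridized to the Affymetrix Wheat GeneChip. All plants were untreated Chinese Spring, a bread wheat cultivar, kept at 22 °C in 16 h of light and at 16 °C in 8 h of dark. For each radicle replicate about 50 seeds were sown in a dish on moist paper, and the roots of 10 seeds on which root and coleoptile had emerged were cut off and pooled. For the embryo, grains came from the central florets of 10 spikes on potted plants at each collection, so that each array also pooled embryos. The arrays of a tissue stood for independent biological samples. The array labels gave no age in days for the radicles, but the study counts the radicle among embryos of a stated age in days. The radicle is only 1 of the organs that grow out of an embryo. Stage and organ therefore differ together in this comparison and cannot be told apart.

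Between these stages a cereal embryo finishes its reserves, dries, rests and resumes growth. In the maturing embryo, abscisic acid is known to switch on late embryogenesis abundant (LEA) proteins, which protect cells as they lose water, together with storage and defence proteins. After imbibition these transcripts are degraded, the radicle breaks out, and its cells divide, elongate, loosen their walls and begin to take up ions. In wheat most genes are present as 3 homoeologous copies on the A, B and D genomes, and a probeset, the group of short probes that measures 1 transcript sequence, can receive signal from several of them. The values below therefore stand for groups of near-identical transcripts. In tissue samples of this kind, fewer cells of a type and less RNA per cell cannot be told apart.

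Expression was analysed for 39564 probesets of the 61115 on the array, those whose names mark them neither as cross-hybridizing nor as of ambiguous orientation. The study also set aside probesets lacking good evidence of a position near the transcript's 3′ end, whose signal it found less reliable on average. No such filter was applied here. The part that these probesets had in the shares called or at background was not tested. The level of a probeset is log2(signal + 16), and a difference is the mean level in the radicle minus the mean level in the embryo. On this scale the differences of dim probesets are understated. A probeset was called when its adjusted p from limma was under 0.05 and its difference at least 1 in size. It was taken to be at background in a tissue when all 3 arrays lay at or below the 95th percentile of the array's 64 reporter probesets, which stood at levels of 6.13 to 6.79 in the radicle and 6.23 to 6.42 in the embryo. Any other probeset counts as above background there, even if only 1 of its arrays exceeded the percentile. For called named differences against a tissue at background a bound is given too.

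The arrays of each tissue resembled each other closely. Over all retained probesets the correlation between radicle arrays was 0.951 to 0.962 and that between embryo arrays 0.960 to 0.964, while a radicle and an embryo array correlated at 0.791 to 0.810. Among the other tissues, radicle arrays were closest to seedling root (0.914 to 0.933) and then to the embryo of germinating seed (0.902 to 0.918), and 22 DAP embryo arrays to immature inflorescence (0.858 to 0.877). Embryo of germinating seed is the wording of the array labels. The study's own tissue list names a mesocotyl at that stage, and its only embryo is that of 22 DAP. These correlations are across probesets, which are not independent replicates. A polyadenylated control RNA stood at 4.07 to 4.77 on the 9 arrays of seedling root, bracts and pistil and at 10.04 to 13.58 on the other 30, and the part this had in comparisons with seedling root was not tested. Median signals were 42.4 to 43.8 in the radicle and 41.9 to 49.5 in the embryo. The hybridization controls, bacterial and phage transcripts added to every sample, had mean levels of 10.91 to 11.20 on radicle arrays and 11.33 to 11.72 on embryo arrays, so the ranges did not overlap. The probeset for 18S ribosomal RNA stood at 11.85 to 12.92 in the radicle and at 9.82 to 10.62 in the embryo.

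In the radicle 4019 probesets (10.2% of all retained) were called higher and 5060 (12.8%) lower than in the embryo. The lower ones were more numerous but moved less: the median difference was 2.00 for probesets higher and -1.5 for those lower in the radicle. At a difference of at least 4 the order was turned, with 626 probesets higher (1.58%) and 280 lower (0.708%), and at 8 the numbers were 41 and 37. Which direction held more calls depended on the scaling between arrays. Of all calls 44.3% were higher in the radicle, but after each array was scaled to its hybridization controls 65.9% were, with 5930 probesets higher and 3062 lower and the median difference over all retained probesets at 0.16 in place of -0.09. Of the probesets called higher in the radicle, 1977 (49.2%) were at background in the embryo, and of those called lower, 1887 (37.3%) were at background in the radicle. Over all retained probesets 17180 (43.4%) were at background in both tissues. That count overlaps those just given, since a called probeset can be at background in both. The 3 values of each tissue did not overlap for 3900 of the probesets higher and 4944 of those lower in the radicle, against 42.5% of all retained probesets.

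**Figure D1:**
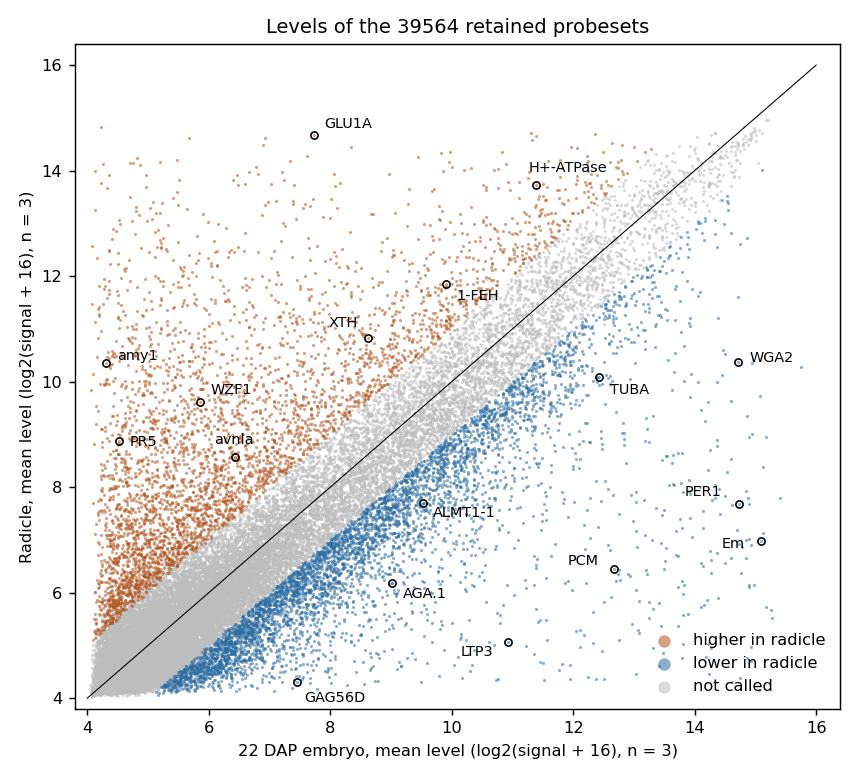
Each point is a retained probeset, with its mean level over 3 embryo arrays on the horizontal axis and over 3 radicle arrays on the vertical axis, both as log2(signal + 16); the line marks equal levels and circles mark named genes. Of 39564 probesets, 4019 called higher in the radicle lie above the line and 5060 called lower lie below it, with Em, PER1 and PCM far to the lower right and GLU1A at the upper left.

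The reference tables paired 713 retained probesets with a gene, but only 110 of them, for 76 genes, carried a gene name as well as a locus number. Of these 110, 16 (14.5%) were called higher in the radicle, beside 10.2% of all probesets, and 30 (27.3%) were called lower, beside 12.8%. Genes with a name are those that had been studied singly, so these shares describe that set and not the genome. Each count for a gene list below is to be set beside the shares over all retained probesets, 10.2% higher and 12.8% lower.

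The genes of embryo maturation showed the largest named differences. Of 6 probesets for 5 genes on this list, 5 were lower in the radicle, none was higher, and 1 was not called, with a median difference of -6.40 beside -0.09 over all retained probesets. Em encodes a LEA protein of the dry embryo. Its levels were 7.13, 6.76 and 7.05 on the radicle arrays, against 15.19, 15.14 and 14.95 on the embryo arrays. The difference was -8.12 (standard error 0.33, adjusted p = 2.31e-18, limma). In deposited signal Em had 124, 92.1 and 117 in the radicle and 37450, 36181 and 31709 in the embryo, so radicle signals were a small remainder that nevertheless lay above background. The radicle was higher in Em than seedling root by 1.90, and no difference was called from the coleoptile (0.53) or the embryo of germinating seed (-0.13). These comparisons share the radicle arrays.

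PER1, rab and PCM were also lower in the radicle, and their levels varied between radicle samples. PER1, the name used in barley for a peroxiredoxin of the seed, which the reference table also lists as a peroxidase, had levels of 7.85, 10.16 and 5.07 in the radicle and 14.83, 14.74 and 14.60 in the embryo, a difference of -7.03 (standard error 0.69, adjusted p = 9.43e-10). The standard error of PER1 rests on the spread within all 13 tissues, while the SD of its radicle values alone was 2.55. The gene rab, whose name stands for responsive to abscisic acid, was measured by 2 probesets. TaAffx.46097.2.S1_at gave levels of 6.84, 10.40 and 4.44 in the radicle against 13.88, 13.83 and 13.65 in the embryo, and Ta.2704.1.S1_at gave 9.87, 12.61 and 7.48 against 14.37, 14.40 and 14.31, so that the differences for rab were -6.56 and -4.37. PCM, which repairs aged aspartate residues in proteins by methylation, had 6.45, 7.46 and 5.45 in the radicle and 12.73, 12.75 and 12.56 in the embryo (difference -6.23). In all these probesets the radicle values stayed below every embryo value, which was a condition for choosing them as leading named genes. Replicate 2 was the highest and replicate 3 the lowest of the radicle samples. Em did not follow this order: its radicle values lay within 6.76 to 7.13, and replicate 2 was the lowest. The last member, COR410, a dehydrin induced by cold, stood at 5.40, 5.50 and 6.31 in the radicle and at 6.47, 4.93 and 5.73 in the embryo, and was not called (0.03). COR410 was at background in the radicle, and in the embryo only replicate 1 exceeded the reporters' percentile. Over the 6 probesets chosen as markers of the maturing embryo, which add WGA2 and leave out COR410, the summed signal was 1722 to 10128 in the radicle and 120817 to 138279 in the embryo. All 6 were called lower, beside 12.8% of all retained probesets. They include every called member of the maturation list and were chosen with earlier results of these data known. The count is therefore not separate evidence. None of the 6 was at background in either tissue. On radicle replicate 3, however, PER1, PCM and rab on TaAffx.46097.2.S1_at lay below the reporters' 95th percentile of 6.79.

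This spread between radicle samples was a feature of many strongly lower probesets. Among the 280 probesets lower by at least 4, 60 (21.4%) had radicle values at least 3 apart, and in 58 of the 60 replicate 2 was highest, and in 58 replicate 3 was lowest. Among the 626 probesets higher by at least 4, only 3 (0.479%) had such a spread, and none of the 9079 called probesets had it between embryo arrays. Over all calls it was rarer, and the replicate order appeared in both directions. Of the 5060 lower, 78 (1.54%) had it, with replicate 2 highest in 73 and replicate 3 lowest in 73. Of the 4019 higher, 30 (0.746%) had it, with replicate 2 highest in 22 and replicate 3 lowest in 23. The minimum of 3 was chosen after the values were seen. All 280 were still called lower when radicle replicate 2 was left out, and 278 when replicate 3 was left out. Without replicate 2 the differences were -8.26 for PER1, -8.15 and -5.69 for rab and -6.73 for PCM, and without replicate 3 they were -5.72, -5.17, -3.12 and -5.73, in the same order. Radicle replicate 3 also had the smallest share of retained probesets above the reporters' 95th percentile (34.1%, against 44.6% and 38.9% for replicates 1 and 2). That percentile itself rose, from 6.13 on replicate 1 and 6.48 on replicate 2 to 6.79 on replicate 3. Median signals were 42.4, 43.8 and 42.9 in the same order. The part that these array properties had in the spread was not tested.

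**Figure D2:**
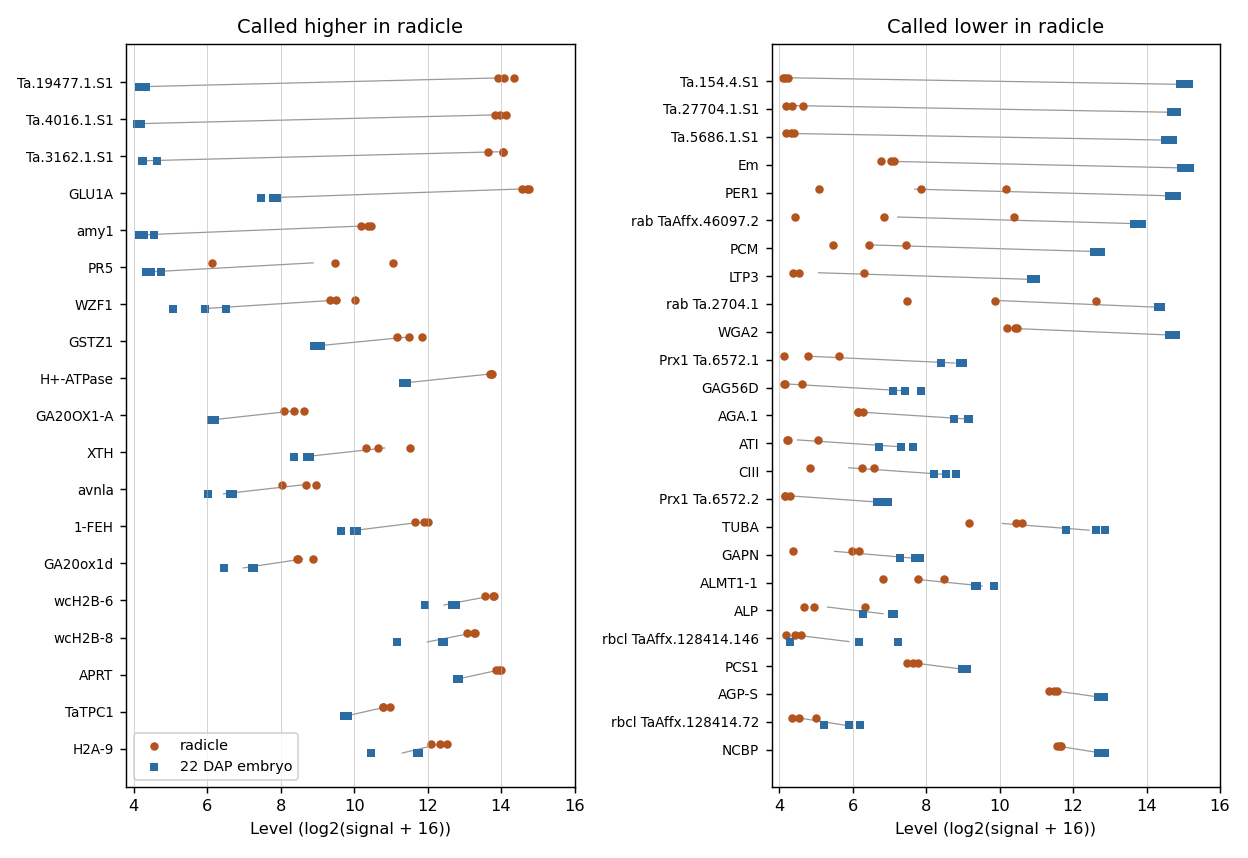
Levels, log2(signal + 16), of the called named and leading unnamed probesets on each radicle array (circles, upper in each row) and embryo array (squares, lower), with a line between both means. In the right panel the radicle values of PER1, rab and PCM spread over 2 units or more while the embryo values lie together, and in the left panel PR5 is spread from 6.12 to 11.05 in the radicle.

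Probesets without a gene name moved further than any named gene. The largest differences below 0 were those of Ta.154.4.S1_at, with levels of 4.15, 4.10 and 4.24 in the radicle and 15.16, 15.11 and 14.91 in the embryo (-10.90, with a bound of -8.59), of Ta.27704.1.S1_at (-10.36, bound -8.28) and of Ta.5686.1.S1_at (-10.33, bound -8.16). All 3 were at background in the radicle and also high in the 22 DAP endosperm, with means of 14.78, 13.68 and 15.74 there. At the other end, Ta.19477.1.S1_at had levels of 13.93, 14.34 and 14.07 in the radicle and 4.14, 4.31 and 4.33 in the embryo, a difference of 9.86 with a bound of 7.79. Ta.4016.1.S1_at (9.85, bound 7.66) and Ta.3162.1.S1_at (9.56, bound 7.60) were also at background in the embryo. The radicle exceeded the coleoptile by 9.61 in Ta.19477.1.S1_at and by 2.27 in Ta.3162.1.S1_at, while the difference of 0.84 in Ta.4016.1.S1_at was not called. In seedling root these probesets had means of 13.41, 12.48 and 13.43, in the order in which they are named here, and only Ta.4016.1.S1_at was called higher in the radicle (1.51).

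Hydrolases and wall enzymes were the list with the largest median difference above 0. Of 4 probesets for 4 genes, 3 were called higher and 1 was not called, with a median difference of 4.12, or 3.11 when bounds were used. GLU1A encodes a beta-glucosidase that in wheat seedlings releases benzoxazinones, toxic defence compounds, from their stored glucosides. Its levels were 14.58, 14.75 and 14.70 in the radicle, against 7.91, 7.47 and 7.80 in the embryo, a difference of 6.95 (standard error 0.27, adjusted p = 8.29e-19). In the coleoptile GLU1A stood at 14.96 and in seedling leaf at 15.47, and the radicle exceeded seedling root by 1.55. The gene amy1, an amylase that the tables also list as BMY1, had 10.47, 10.39 and 10.19 in the radicle and 4.54, 4.27 and 4.13 in the embryo. Since all embryo values of amy1 were at background, its difference of 6.04 is at least 4.02. The radicle also exceeded coleoptile by 2.52, the embryo of germinating seed by 4.57 and seedling root by 3.32 in amy1, although the caryopsis (13.93) and pistil (12.15) had higher means. XTH, which cuts and rejoins xyloglucan in the growing wall, had 10.65, 10.33 and 11.51 in the radicle and 8.36, 8.79 and 8.72 in the embryo (difference 2.21, adjusted p = 1.96e-08), and was higher still in the coleoptile (12.86). Glc1, the member not called, was at background in both tissues.

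The list of hormone and signalling genes came next, with 3 of 5 probesets higher, none lower and a median difference of 1.61. It held 3 GA20ox genes, of which 2 were called higher, WZF1, which was called higher, and FKBP70, which was not called. The GA20ox oxidases make the precursors of active gibberellin, the hormone of germination and elongation. GA20OX1-A had levels of 8.09, 8.63 and 8.35 in the radicle and 6.11, 6.20 and 6.09 in the embryo, where it was at background (difference 2.22, bound 2.03). GA20ox1d had 8.47, 8.88 and 8.44 in the radicle and 6.46, 7.28 and 7.21 in the embryo (difference 1.61). GA20ox1b had 7.97, 8.60 and 7.89 in the radicle against 7.08, 7.87 and 6.86 in the embryo. The values of GA20ox1b did not overlap, but its difference of 0.88 was not called (adjusted p = 0.121), though it was after scaling to hybridization controls (1.32). By their names these are homoeologous copies, and their probesets may share signal. GA20OX1-A was also higher in the radicle than in coleoptile (1.65), the embryo of germinating seed (1.71) and seedling root (1.2). WZF1, a zinc finger protein, stood at 9.50, 9.35 and 10.02 in the radicle and at 5.95, 6.50 and 5.08 in the embryo (difference 3.78, adjusted p = 6.96e-06). FKBP70, a protein-folding isomerase, was bright in both tissues and not called (0.23).

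Transport genes did not move together. Of 4 probesets, 2 were higher and 2 lower in the radicle. The gene H+-ATPase, the proton pump of the plasma membrane that energizes uptake, had levels of 13.69, 13.73 and 13.76 in the radicle and 11.41, 11.32 and 11.43 in the embryo, a difference of 2.34 with a standard error of 0.14 (adjusted p = 1.63e-14). TaTPC1, a calcium-permeable cation channel, was higher by 1.07. ALMT1-1, a malate channel through which root tips of wheat release malate in response to aluminium, was lower in the radicle than in the embryo, at 7.77, 6.83 and 8.49 against 9.85, 9.32 and 9.39 (difference -1.82, adjusted p = 0.00399). ALMT1-1 was the only gene chosen as a marker of root, so this marker goes against the label, although the radicle arrays were closest to seedling root over all probesets. It was also lower in the radicle than in seedling root (-3.29) and in the embryo of germinating seed (-2.96). PCS1, which makes metal-binding phytochelatins, was lower (-1.42), at 7.78, 7.63 and 7.47 in the radicle and 9.05, 8.97 and 9.11 in the embryo. PCS1 did not pass after scaling to hybridization controls, since its difference of -1.0 was then short of the minimum.

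Histone probesets were bright in both tissues. All 7, for 2 H2A and 2 H2B genes, had a mean above the embryo's in the radicle, but only 3 passed the test, with a median difference of 0.93. For wcH2B-6 the levels were 13.55, 13.79 and 13.82 in the radicle and 11.92, 12.76 and 12.66 in the embryo (difference 1.27, adjusted p = 0.000316). Embryo replicate 1 was the lowest embryo array in all 7 probesets. Without it the differences of wcH2B-8 (Ta.7378.18.S1_at) and H2A-9 (Ta.27657.12.S1_at) were 0.79 and 0.58 and neither was called, and both calls were also lost when any 1 radicle array was left out, which left wcH2B-6 as the only one. The H2A-9 call was lost under either other offset and after quantile normalization as well. Of the tubulins, TUBA was lower in the radicle, at 10.44, 9.17 and 10.61 against 11.80, 12.87 and 12.63 in the embryo (difference -2.36), while 3 beta-tubulin probesets lay between -0.47 and 0.41 and were not called. APRT, which recycles adenine, was higher by 1.11, and TBP1, the TATA-binding protein, lower (-1.36), each with narrow replicates (13.94, 13.99 and 13.87 against 12.83, 12.79 and 12.85 for APRT, and 10.24, 10.05 and 10.15 against 11.59, 11.51 and 11.43 for TBP1). The TBP1 call was lost after scaling to hybridization controls (-0.91).

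Among lectins and defence proteins, WGA2 and LTP3 were lower and PR5 higher in the radicle. WGA2, one of the wheat germ agglutinins that bind chitin, had levels of 10.43, 10.21 and 10.46 in the radicle and 14.81, 14.74 and 14.62 in the embryo (difference -4.36, adjusted p = 5.69e-11). Although lower than in the 22 DAP embryo, WGA2 in the radicle still exceeded coleoptile by 3.60 and seedling root by 1.86, and between the radicle (10.37) and the embryo of germinating seed (10.48) no difference was called. LTP3, a lipid transfer protein, was at background in the radicle with 4.54, 6.30 and 4.37, against 10.86, 10.99 and 10.90 in the embryo, a difference of -5.85 with a bound of -4.45. LTP3 was also lower in the radicle than in the coleoptile (-7.94) and the embryo of germinating seed (-6.32), and its mean in seedling root was 4.28. PR5, a thaumatin-like protein, stood at 9.48, 11.05 and 6.12 in the radicle and at 4.34, 4.75 and 4.47 in the embryo, where it was at background. The PR5 difference of 4.36, with a bound of 2.56, was 3.28 without radicle replicate 2 and 5.74 without replicate 3. The radicle exceeded seedling root in PR5 by 4.50, and its difference of 0.30 to the embryo of germinating seed was not called.

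**Figure D3:**
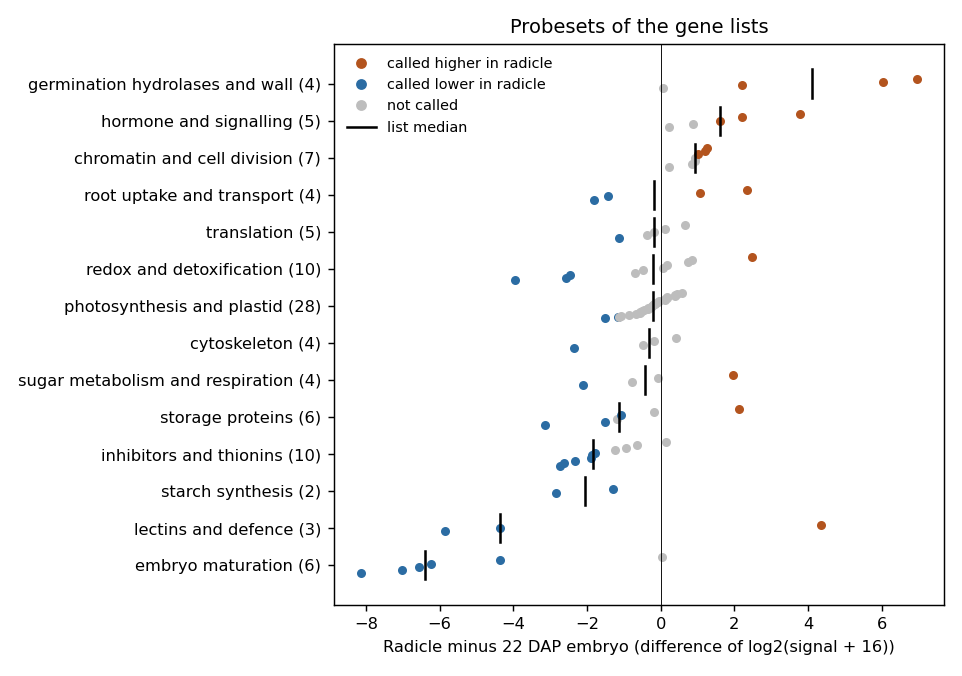
Differences, radicle minus 22 DAP embryo on the scale of log2(signal + 16), for the probesets of each gene list, with the number of probesets in brackets and a line at the median. Embryo maturation lies lowest with a median of -6.40 and germination hydrolases highest with 4.12, while transport, redox and lectin lists have called members on both sides of 0.

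Most reserve proteins of the grain were dim in both tissues, and most calls among them concern low levels. The exceptions were an ALP probeset (Ta.27777.1.S1_at) and xip, a xylanase inhibitor, which had 13.26, 13.65 and 13.23 in the radicle and 14.30, 13.93 and 13.81 in the embryo and was not called (-0.63). Of 6 storage protein probesets 3 were lower, 1 was higher and 2 were not called. Of 10 probesets for enzyme inhibitors and thionins, 6 were lower and 4 were not called, with a median of -1.83 that became -0.85 with bounds. Over all retained probesets 12.8% were lower and 10.2% higher. GAG56D, a gamma-gliadin, had 4.15, 4.63 and 4.14 in the radicle and 7.42, 7.09 and 7.86 in the embryo (difference -3.15, bound -0.99). CIII, an alpha-amylase inhibitor, had 4.85, 6.24 and 6.58 in the radicle and 8.21, 8.54 and 8.81 in the embryo (difference -2.63, bound -2.05). ATI, which inhibits amylase and trypsin, was lower in both its probesets (-2.73, with a bound of -0.75, and -1.78), and the call for Ta.58.1.S1_at (-1.78) was lost without radicle replicate 2. In the radicle Ta.58.1.S1_at had 6.21, 5.25 and 6.75, of which only replicate 1 exceeded the reporters' percentile of its array. The thionins Pur-A1, TTHV and THI1.2 were lower by the test (-2.32, -1.89 and -1.87), but Pur-A1 and TTHV were at background in the radicle with bounds of -0.02 and 0. THI1.2, at 6.72, 6.30 and 5.24 in the radicle, exceeded the reporters' percentile there on replicate 1 alone. The ALP probeset Ta.27712.1.S1_at, for an avenin-like protein, had overlapping values in both tissues, and its call (-1.51, bound -0.36) was lost without radicle replicate 1 (-1.18) and in a fit of these 2 tissues alone. In the 22 DAP endosperm, the tissue that stores these proteins, GAG56D reached 16.30, CIII 16.34 and the ATI probesets 16.02 and 16.28. Summed over 12 endosperm marker probesets, the signal was 467 to 826 in the radicle, 1144 to 1646 in the embryo and 727852 to 781134 in the endosperm, so that the embryo had 0.175% of the endosperm's signal. Of all 13 such markers 7 were called lower and 1 higher in the radicle, and 3 were above background in the radicle and 9 in the embryo. The part that traces of endosperm had in these calls was not tested. The thirteenth, the ALP probeset Ta.27777.1.S1_at, left out of this sum, did not mark the endosperm (12.54) and stood at 12.21 in the radicle and 13.30 in the embryo. It was called lower (-1.08), but not after scaling to hybridization controls (-0.63) or quantile normalization (-0.99).

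An avenin-like storage protein gene, avnla, ran the other way. Its levels were 8.69, 8.05 and 8.96 in the radicle and 6.01, 6.70 and 6.62 in the embryo, a difference of 2.12 (standard error 0.40, adjusted p = 6.85e-05). It was also higher in the radicle than in coleoptile (3.85), the embryo of germinating seed (3.70) and seedling root (4.13), and only the endosperm (15.50) had a higher mean among the 13 tissues. In deposited signal the radicle had 0.813% of the endosperm's mean for avnla. The part that traces of endosperm had in this level was not tested.

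Genes of starch synthesis were lower in the radicle, while of 4 sugar metabolism probesets 1 was higher, 1 was lower and 2 were not called. Both probesets for ADP-glucose pyrophosphorylase, which supplies starch synthesis, were called. AGA.1 had 6.13, 6.28 and 6.14 in the radicle, at background, and 8.75, 9.14 and 9.16 in the embryo (difference -2.84, bound -2.55). AGP-S, the small subunit, was bright in both, at 11.48, 11.34 and 11.57 in the radicle and 12.69, 12.73 and 12.84 in the embryo, and its difference of -1.29 became -0.84, no longer called, after scaling to hybridization controls. The fructan-degrading enzyme 1-FEH was higher in the radicle, with 11.66, 11.91 and 12 against 9.99, 10.07 and 9.64 in the embryo (difference 1.96, adjusted p = 7.53e-12), but no difference was called between the radicle and the coleoptile (0.58), the embryo of germinating seed (-0.14) or seedling root (-0.40). GAPN, a glyceraldehyde-3-phosphate dehydrogenase, was lower (-2.10), at 6.16, 4.37 and 5.98 in the radicle and 7.28, 7.70 and 7.83 in the embryo. Of its radicle values only that of replicate 1 exceeded the reporters' percentile. Pgk-1, a phosphoglycerate kinase, was not called (-0.08).

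Most redox probesets were not called. Of 10 probesets, 1 was higher, which is near the 10.2% of all retained probesets. A further 3 were lower, beside 12.8%, and 6 were not called. At background in both tissues were 4 of the 10. GSTZ1, a glutathione transferase, had 11.49, 11.85 and 11.17 in the radicle and 8.90, 9.09 and 9.05 in the embryo on TaAffx.56524.1.S1_at (difference 2.49), while its other probeset, Ta.237.1.S1_at, gave 0.84 and was not called, though it was without radicle replicate 3 (1.22) and after scaling to hybridization controls (1.29). The peroxiredoxin Prx1 was lower on 2 of 3 probesets (-3.94 and -2.58, with -0.47 on the third) and the plastid thioredoxin Trx-M was lower (-2.45). The probesets called lower were at background in the radicle, with bounds of -2.32 and -0.32 for Prx1 and -0.42 for Trx-M. Levels were high in seedling leaf, where Prx1 reached 14.43 and Trx-M 15.45. Both were lower in the radicle than in the coleoptile, with differences of -5.68 and -4.35 for Prx1 and -3.92 for Trx-M. Of 28 probesets for photosynthesis and plastid genes 2, both for rbcl, were called lower, beside 12.8% of all retained probesets, and 19 were at background in both tissues, beside 43.4%. Of the called ones, TaAffx.128414.72.S1_at was itself at background in both tissues, and the bound for TaAffx.128414.146.S1_at was 0.57, so neither showed a decrease beyond background. Neither rbcl call held when embryo replicate 1 was left out, and the call for TaAffx.128414.72.S1_at was lost with the replicate block as well (-1.15, adjusted p = 0.0603). Summed over 27 marker probesets of green tissue the signal was 1199 to 1305 in the radicle and 1496 to 1667 in the embryo, and 4 of them were above background in the radicle and 8 in the embryo. For translation, 1 of 5 probesets was lower, beside 12.8% of all retained probesets. It was that for the cap-binding protein NCBP (-1.14), a call that scaling to hybridization controls removed (-0.69). The small heat shock protein hsp16.9A was lower (-1.66, bound -0.51), but not when radicle replicate 2 or 3 or embryo replicate 2 was left out. The initiation factors eIF-4E-1 and eIF-2-beta lay at -0.37 and 0.12.

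Arrays of the other 11 tissues, which entered the variances behind the calls but not the differences, showed where the called probesets were expressed elsewhere. For 1409 (35.1%) of the probesets called higher in the radicle, seedling root had the highest mean among the 11 tissues, against 9.06% of all retained probesets. Their median level was 8.85 in seedling root, 7.89 in seedling leaf, 7.74 in the embryo of germinating seed and 7.63 in seedling crown, beside medians over all retained probesets of 5.98, 6.08, 5.85 and 5.96 in the same order. Of the probesets called lower in the radicle, 1094 (21.6%) were highest in immature inflorescence, against 9.59% of all, and 1087 (21.5%) in the 22 DAP endosperm, against 18.9%. At a difference of at least 4 the picture was sharper: seedling root was highest for 368 (58.8%) of the 626 probesets higher in the radicle, and the endosperm for 191 (68.2%) of the 280 lower, whose median level in the endosperm was 10.98 and in no other of the 11 tissues above 7.10. Immature inflorescence was then highest for only 17 (6.07%).

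**Figure D4:**
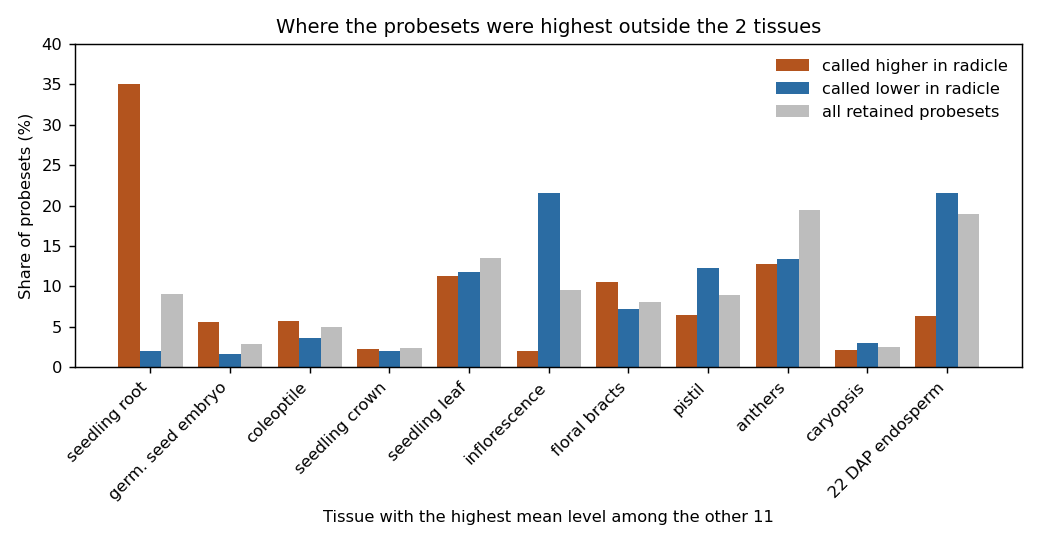
Share in percent of the probesets called higher in the radicle (left bar), called lower (middle bar) and of all retained probesets (right bar) whose highest mean among the other 11 tissues was in the tissue named on the axis. Seedling root stands out for probesets higher in the radicle (35.1% against 9.06% of all), immature inflorescence for those lower (21.6% against 9.59%).

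The 22 DAP embryo exceeded the embryo of germinating seed by 7.98 in Em and by 7.77 in PER1, and PCM, WGA2 and both rab probesets were also called higher at 22 DAP. These comparisons share the 22 DAP embryo arrays with those against the radicle. Since the study lists a mesocotyl and no embryo of germinating seed, organ and stage differ together here too and cannot be told apart. Set against germinating seed embryo, the 22 DAP embryo had 6.98% of all retained probesets called higher and 8.30% called lower, and set against the endosperm 12.5% and 16.3%. In the radicle 7.28% were called higher and 4.91% lower than in coleoptile, 4.14% higher and 4.28% lower than in the embryo of germinating seed, and 2.20% higher and 5.19% lower than in seedling root, and all 3 of these comparisons share the radicle arrays.

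**Figure D5:**
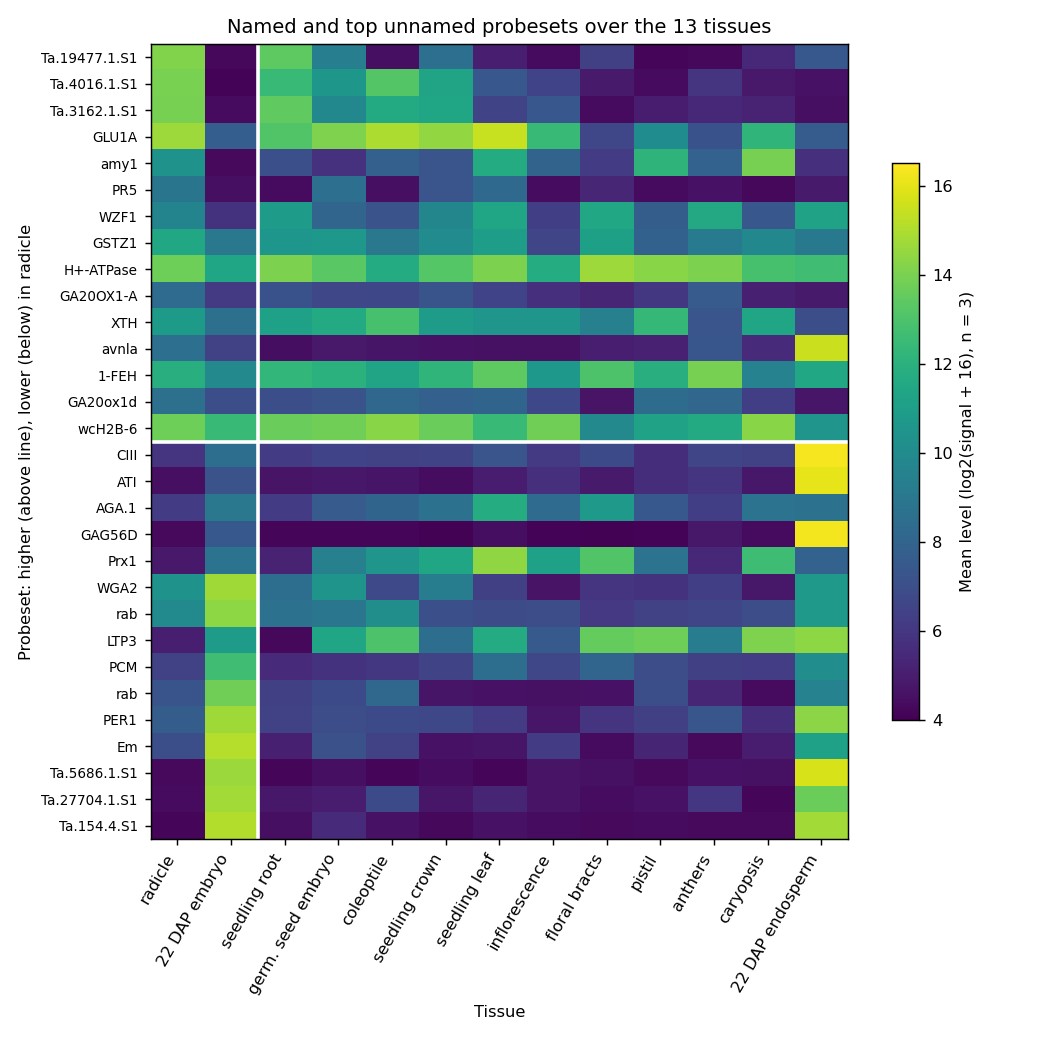
Mean level, log2(signal + 16), of the leading named and unnamed probesets in each of the 13 tissues (columns, 3 arrays each), with the radicle and then the 22 DAP embryo left of the white line, and probesets called higher in the radicle above the horizontal line and those called lower below it. Em, PER1 and the 3 unnamed probesets at the bottom are bright in the 22 DAP embryo and the endosperm, and GAG56D, ATI and CIII almost only in the endosperm.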

How the data were processed

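RNA of 13 tissues of cv. Chinese Spring, 3 biological samples each, had been hybridized to 39 Wheat GeneChips. The deposited values are MAS5 intensities, 1 per probeset and array on a linear scale, which the authors made with a scaling that left the 2% trimmed mean of each array between 500.2 and 500.4; for the MAS5 software no version was given. The RMA values of the study's own analysis were not used, and no detection calls were used. The number of arrays, 3 per tissue, limits the precision.

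Levels were log2(signal + 16) without further scaling. Probesets ending in _s_at, _x_at or _a_at or holding .A1_, 64 reporters and 111 controls were left out. In limma 3.58.1 (R 4.3.3) 1 mean per tissue was fitted over all 39 arrays, with empirical Bayes variances and no covariate; p-values are two-sided and adjusted by Benjamini-Hochberg over 39564 probesets. Bounds replace the dim tissue's value on each array by the higher of that value and the reporters' 95th percentile. Array and RNA batches were not given. Gene names come from the platform annotation and RefSeq gene tables (IWGSC CS RefSeq v2.1), which were used for names alone; 1273 probesets on the array had a gene.

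Named genes are the 12 largest named differences in each direction among called probesets whose values did not overlap, the 3 largest without a name in each direction, and in each list the 2 members at either end; other list members, APRT and TBP1 were named after their values were seen. Lists were matched by gene symbol, and some terms were extended from the names in the tables. A lipid list had 0 members. The members and lists were chosen with earlier results of these data known. On simulated data for these arrays the fit was tested before use. Alternatives were other offsets, scalings, filters, variance models and thresholds, a replicate block and leaving out each array. Replicate numbers did not pair the samples. Figures were drawn with matplotlib 3.10.9 in Python 3.11.15 (numpy 2.4.6, pandas 2.3.3).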

Additional observations from a re-analysis of the deposited data

How the results depend on the processing

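No probeset called in the comparison became called in the opposite direction under any alternative run. The number lower in the radicle was 5060 and became 3118 with an offset of 64 and 3062 after scaling to the 27 hybridization control probesets. With all 61115 wheat probesets it was 9585 lower and 7520 higher, and at a minimum difference of 2 it was 1240 lower and 2014 higher, 61.9% of calls. Leaving out 1 array at a time gave 3753 to 3921 higher and 4651 to 4915 lower. For single named or listed probesets, 1029 values under an alternative kept their side of the threshold, 37 lost the call and 5 gained it; 10 calls were lost or gained by scaling to hybridization controls, where the causes were not tested. Replicate numbers did not deviate together (same-number correlations -0.019, -0.001 and 0.008); with the replicate block 4019 probesets were higher and 5053 lower, and of the named calls only that of rbcl TaAffx.128414.72.S1_at was lost (adjusted p = 0.0603). Differences of at least 4, added after seeing the data, numbered 618 to 657 higher and 264 to 298 lower with 1 array left out. Levels under about 6.79, the highest reporter percentile of these arrays, have no reliable order.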

Other observations

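The array's own control probesets for wheat genes, which lie outside the retained set and were not tested, gave further values. Sucrose synthase, which splits sucrose for growth and respiration, averaged 13.23 ± 0.24 in the radicle and 12.36 ± 0.15 in the embryo (SD, n = 3 each) on its 3′ probeset, and its middle and 5′ probesets were also higher, by 0.90 and 0.74. Glucose-6-phosphate dehydrogenase, the first enzyme of the oxidative pentose phosphate pathway, averaged 12.41 ± 0.12 in the radicle and 11.44 ± 0.07 in the embryo on its 3′ probeset, with the other probesets 1.07 and 0.86 higher. The cytochrome P450 probesets named CYP86 differed among themselves, by 1.51 at the 3′ end, 0.75 in the middle and -0.04 at the 5′ end. Ubiquitin stood at 13.71 ± 0.10 in the radicle and 13.72 ± 0.09 in the embryo on its 3′ probeset, with its other probesets within -0.20 and 0.05.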
